A study of Mus musculus with 6 samples.

Results

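A set of 8 miRNAs enriched in neurons were followed in mouse serum after sciatic nerve allografting: miR-9-5p, miR-9-3p, miR-124-3p, miR-128-3p, miR-128-1-5p, miR-129-5p, miR-129-2-3p and miR-218-5p. They were taken by name, and all 8 are among the 1281 mature miRNA entries of the count table. Serum came from FK506-treated graft recipients at days 3, 7 and 14 and from untreated graft recipients at the same days, with 1 library for each treatment and day. All animals were male, 10 to 12 weeks old when bought, and carried a 1-cm sciatic nerve graft from a Balb/c donor in a 0.5-cm gap of the right hindlimb. FK506, also called tacrolimus, suppresses T cells by inhibiting calcineurin and was injected under the skin at 1 mg per kg per day; the untreated arm had the same surgery and no drug. The recipient strain is labelled C57BL/6, although the surgical text also names Balb/c recipients. Blood was drawn with anticoagulant and white cells were removed after spinning, although the material is labelled serum. The labels give 3 animals per group and day without saying whether a library pooled them. Ungrafted animals were not analysed here.

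A miRNA is a short RNA that pairs with messenger RNAs through its seed, bases 2 to 8, and lowers their output. miR-9 acts in neural progenitors and neurons, where its arms repress parts of the REST complex. miR-124 is the characteristic miRNA of mature neurons and represses Ptbp1, a splicing regulator of non-neuronal cells. miR-128 limits neuronal excitability in the mouse, miR-129 acts in dendrites, and miR-218 is enriched in motor neurons. A sciatic nerve holds the axons of motor and sensory neurons, wrapped by Schwann cells, but not the cell bodies of those neurons. Serum miRNAs come from many tissues, with blood cells as a main source.

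Mature sequences are shown because the seeds set the members apart. They are RefSeq sequences of mouse build GRCm38.p6, matched by name for 7 of the 8, with the seed in capitals.
miR-9-5p: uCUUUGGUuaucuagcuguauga
miR-9-3p: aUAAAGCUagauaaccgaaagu
miR-128-3p: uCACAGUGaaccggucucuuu
miR-128-1-5p: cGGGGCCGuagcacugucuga
miR-129-5p: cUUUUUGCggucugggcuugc
miR-129-2-3p: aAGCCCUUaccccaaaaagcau
miR-218-5p: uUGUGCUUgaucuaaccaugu
The 7 sequences have 7 different seeds, so no pair of them forms a seed family. Among 1679 mature names in the RefSeq table, miR-128-1-5p shares its seed with miR-128-2-5p, and miR-218-5p shares its seed with miR-7002-3p. No read of miR-7002-3p was counted, and whether it has an entry in the count table was not checked. The other 5 seeds occur in no other entry of that table.

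Most members come from several genes, so a read cannot be assigned to a single locus. On GRCm38, miR-9 is encoded by Mir9-1 (chromosome 3, 88215598 to 88215686), Mir9-2 (chromosome 13, 83738814 to 83738885) and Mir9-3 (chromosome 7, 79505264 to 79505353). GENCODE places Mir9-1 and Mir9-3 in introns of long noncoding RNA genes, and Mir9-2 in an exon of C130071C03Rik. The 3 miR-124 genes, Mir124a-1 on chromosome 14, Mir124a-2 on chromosome 3 and Mir124a-3 on chromosome 2, lie in exons of long noncoding RNA genes. Mir128-1 (chromosome 1, 128202361 to 128202430) is in an intron of R3hdm1, and Mir128-2 (chromosome 9, 112118636 to 112118711, minus strand) is in an intron of Arpp21. Mir218-1 (chromosome 5) and Mir218-2 (chromosome 11) lie in introns of Slit2 and Slit3, genes of axon guidance cues. Mir129-1 (chromosome 6) overlaps an exon of the noncoding gene Gm3294, and Mir129-2 (chromosome 2, minus strand) an intron of Mir670hg.

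The untreated day 7 library stood apart from the other 5. Over the 153 entries kept by a filter on low counts, which are not independent replicates, Pearson's r of log2 levels was 0.817 to 0.872 between it and each other library, and 0.932 to 0.976 between any pair of those others. It was 1 of 11 barcoded libraries that shared a lane, of which 6 were analysed here. With 1 library for the group, what belongs to the graft recipients at that day, to the sample (RNA from another source or an exchanged tube included) and to the library cannot be told apart. Each FK506 comparison at day 7, and each comparison of untreated day 7 with day 3, rests on it.

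Of the 8 members, 6 were almost confined to 1 library, the untreated serum of day 7. These 6, miR-9-5p, miR-9-3p, miR-124-3p, miR-129-5p, miR-129-2-3p and miR-218-5p, together had 8357 reads in that library and 13 in the other 5. The remaining members, miR-128-3p and miR-128-1-5p, had reads in all 6 libraries. Near 0 here means at most 10 reads over the 5 other libraries, a description of the counts and not a test. Levels are given as CPM, counts per 1000000 summed counts of the library, with exact 95% Poisson intervals that cover counting error only.

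miR-9-5p had 0, 0 and 0 reads in FK506 serum at days 3, 7 and 14, against 1, 7683 and 0 reads in untreated serum. It was the 12th most abundant entry of the untreated day 7 library. miR-9-3p, from the other arm of the same hairpins, had 0 reads in every FK506 library and 0, 37 and 0 in untreated serum. miR-124-3p likewise had 0 reads in every FK506 library and 0, 182 and 0 in untreated serum. For these 3 miRNAs a single read was seen outside untreated day 7. In the other 5 libraries the two-sided 95% interval of a count of 0 reaches up to 0.635 to 0.739 CPM, and the floor of 3 reads used for folds lies at 0.517 to 0.601 CPM.

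miR-129-2-3p had 0, 4 and 3 reads in FK506 serum at days 3, 7 and 14, against 0, 234 and 0 in untreated serum. miR-129-5p had 0, 0 and 2 reads with FK506, against 0, 114 and 0 in untreated serum. miR-218-5p had 2, 0 and 1 reads with FK506, against 0, 107 and 0 without it. Of the 13 reads of the 6 members outside untreated day 7, 12 lay in the FK506 libraries and 1 in untreated day 3. None of the 6 had more than 4 reads in any of those 5 libraries, so differences among them are not detectable at this depth.

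miR-128-3p was the member present throughout. It had 144, 282 and 457 reads in FK506 serum at days 3, 7 and 14, against 96, 1348 and 109 in untreated serum. In CPM these were 28.8, 55.6 and 78.7 with FK506, against 18.7, 275 and 20.3 without it. The untreated day 7 level stood above all others, and the FK506 levels lay between it and the levels of untreated days 3 and 14. miR-128-1-5p, the opposite arm of the Mir128-1 hairpin, was scarce: 6, 8 and 5 reads with FK506, against 16, 95 and 11 without it. Its reads were fewer in FK506 serum at each of the 3 days.

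**Figure D1:**
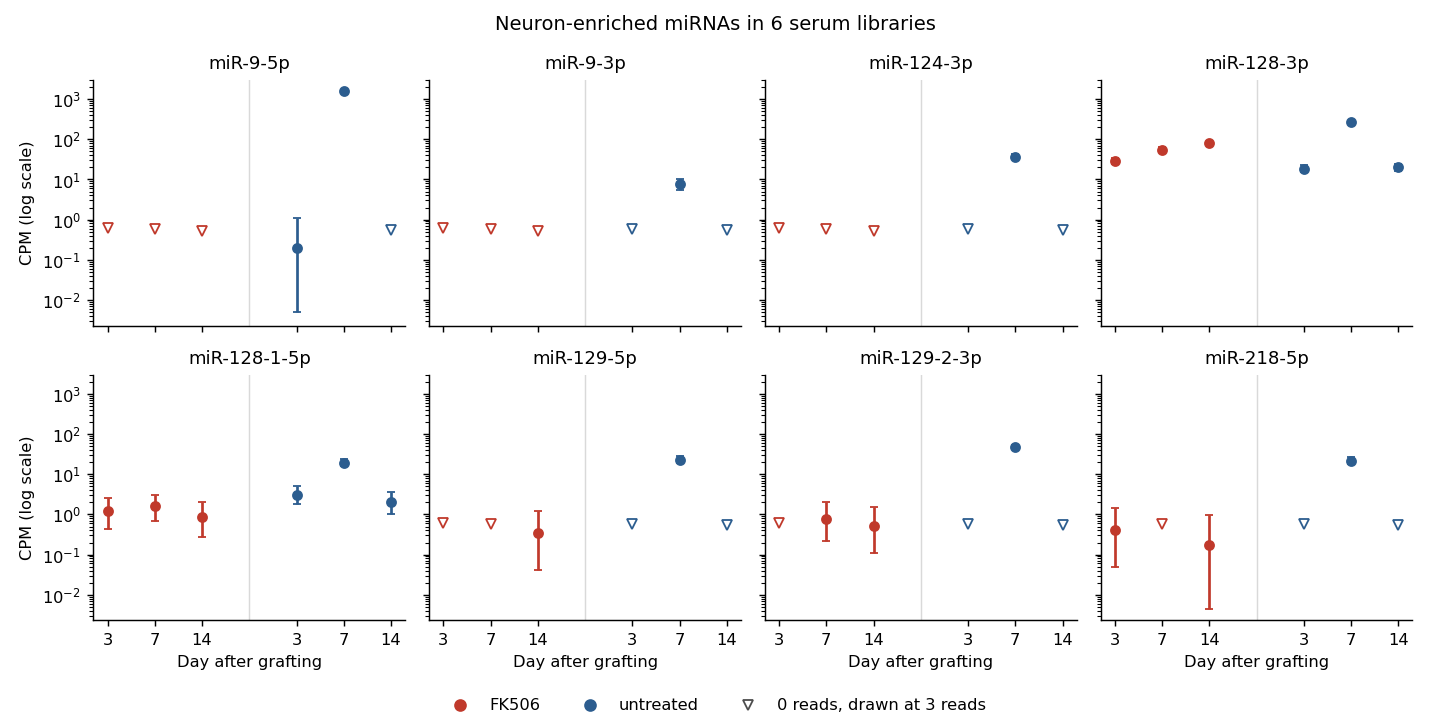
Levels of the 8 neuron-enriched miRNAs in CPM on a log axis, by day, in FK506 libraries (red, left) and untreated libraries (blue, right); each point is 1 library, bars are exact 95% Poisson intervals, and open triangles mark 0 reads, drawn at the level of 3 reads. In 6 panels the untreated day 7 point stands above the rest, which hold at most 4 reads, while miR-128-3p and miR-128-1-5p have points in every library.

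Within the untreated day 7 library the members spanned 7683 to 37 reads. miR-9-5p had 5.70 times the reads of miR-128-3p (interval 5.38 to 6.04), and 42.2 times those of miR-124-3p (36.4 to 49.2). miR-128-3p had 5.76 times the reads of miR-129-2-3p. miR-129-2-3p exceeded miR-124-3p by 1.29-fold (1.05 to 1.57), and miR-124-3p exceeded miR-129-5p by 1.60-fold (1.26 to 2.04). The neighbours miR-129-5p, miR-218-5p and miR-128-1-5p, with 114, 107 and 95 reads, did not differ beyond counting error. These are read counts of entries of nearly equal length, and differences in ligation efficiency between sequences were not measured.

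The arms of a hairpin differed in read number. In untreated day 7 serum miR-9-5p had 208 reads for each read of miR-9-3p (interval 151 to 295). The reads of miR-129-5p were 0.487 of those of miR-129-2-3p (0.386 to 0.612), although miR-129-5p can also come from Mir129-1. Of the other arms of these hairpins, miR-129-1-3p had 56 reads and miR-124-5p had 9 in that library. Their counts elsewhere were 2 reads of miR-129-1-3p and 0 of miR-124-5p. miR-218-1-3p and miR-218-2-3p had 0 reads in all 6 libraries, and miR-128-2-5p had 2 reads, both in FK506 day 14.

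All members together made up 0.145%, 0.285% and 0.130% of the reads outside the top pair in FK506 serum at days 3, 7 and 14, against 0.0706%, 3.29% and 0.0757% in untreated serum. The top pair, miR-486-5p and the inseparable entry miR-3107-5p, is erythroid and held 93.8% to 98.0% of the summed counts of each library. Its reads appear to be counted under both entries. Without miR-128-3p the shares were 0.00765%, 0.0116% and 0.00306% with FK506, against 0.0106%, 2.84% and 0.00694% without it. Outside untreated day 7, nearly all member reads were thus miR-128-3p. In serum, release from more cells and more RNA per cell cannot be told apart.

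Comparing FK506 with no FK506 at a given day asks which circulating miRNAs went with immunosuppression. Each comparison sets 1 library against 1, so it has no replicate check and no p-value. Counts were scaled with TMM, a scaling that leaves out the most extreme miRNAs, and a difference was counted at 2-fold or more with at least 50 reads in 1 of the 2 libraries. At day 7 all 7 members that reached 50 reads in either library were lower in FK506 serum, where 46.5% of the 129 entries compared were lower and 20.9% higher. The median log2 ratio was -4.79 over those 7 and -0.75 over all 129. Of these 7, 6 reached 50 reads in untreated day 7 alone, so they entered the comparison only through the library where they were high. miR-9-3p, with 37 reads at most, was not compared.

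At day 7 miR-9-5p was at least 1862-fold lower in FK506 serum, computed against a floor of 3 reads in the FK506 library. Against the same floor miR-124-3p was at least 44.1-fold, miR-129-5p at least 27.6-fold and miR-218-5p at least 25.9-fold lower. miR-129-2-3p was 42.5-fold lower (interval 16.4 to 157). With totals that leave out the top pair, these bounds were lower, at least 885-fold for miR-9-5p, 21.0-fold for miR-124-3p, 13.1-fold for miR-129-5p and 12.3-fold for miR-218-5p, and miR-129-2-3p was 20.2-fold lower. The members present throughout differed less: miR-128-1-5p was 8.63-fold lower (4.21 to 20.6), or 4.11-fold with those totals, and miR-128-3p 3.47-fold lower (3.05 to 3.96). With the same totals miR-128-3p had a log2 ratio of -0.72, short of 2-fold, in place of -1.80.

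At day 3 miR-128-3p was the single member that could be compared, and it was 2.35-fold higher in FK506 serum (interval 1.80 to 3.07). At that day 22.2% of 99 entries were higher and 11.1% lower. With library totals as the scale, the day 3 ratio was 1.54-fold (1.18 to 2.02). At day 14 miR-128-3p was again the single member compared and was 1.54-fold higher in FK506 serum (1.25 to 1.92), which is under 2-fold. Of the 130 entries compared at day 14, 21.5% were higher and 15.4% lower. With library totals the day 14 ratio was 3.87-fold (3.13 to 4.81), since TMM made the size of FK506 day 14 2.08 times its total over the kept entries. miR-128-3p thus had ratios above 1 at days 3 and 14 and below 1 at day 7 under each of the 4 scalings.

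**Figure D2:**
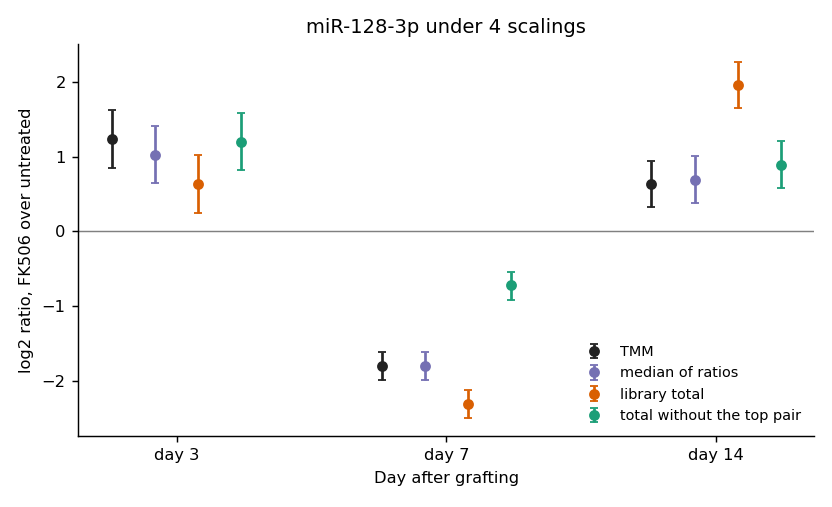
log2 ratio of miR-128-3p, FK506 over untreated, at each day (x axis) under 4 ways of scaling the counts (colours); bars are exact 95% binomial intervals of the 2 counts. The ratio is above 0 at days 3 and 14 and below 0 at day 7 for every scaling, with TMM values of 1.23, -1.80 and 0.63.

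miR-128-1-5p had too few reads at days 3 and 14 for the 50-read rule. Its ratio was 0.587 at day 3 (interval 0.188 to 1.58), which includes equal levels, or 0.386 with library totals. At day 14 it was 0.167 (0.0456 to 0.522) with TMM and 0.419 (0.114 to 1.31) scaled to the library total. For the other 6 members both libraries were at or under 3 reads at days 3 and 14, and no ratio was formed.

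Within untreated recipients the question was how the members moved with time after grafting. At day 7 against day 3, all 7 members that reached 50 reads were at least 2-fold higher, where 48.4% of all entries compared were higher and 14.8% lower. Of these 7, 6 again reached 50 reads through the day 7 library alone. miR-128-3p was 14.8-fold higher (interval 12.0 to 18.4), or 7.54-fold with totals without the top pair. miR-128-1-5p was 6.25-fold higher (3.66 to 11.4), or 3.19-fold with those totals. miR-9-5p, with 7683 reads at day 7 and 1 at day 3, had a ratio of 8089, and its interval ran from 1451 to 319540; resting on a single read, it is not comparable with bounds set at the floor. At day 14 against day 3 miR-128-3p was 1.39-fold higher (1.05 to 1.85), where 10.8% of 102 entries passed 2-fold higher and 6.86% lower. The untreated level was thus high at day 7 alone among the 3 days.

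Within FK506-treated recipients miR-128-3p was 1.81-fold higher at day 7 than at day 3 (interval 1.48 to 2.23), where 3.23% of 93 entries passed 2-fold higher and 6.45% lower. At day 14 against day 3 its ratio was 0.914 (0.756 to 1.11), where 10.2% of entries passed 2-fold higher and 16.4% lower. By library totals that last ratio was 2.73 (2.26 to 3.31). miR-9-5p, miR-9-3p and miR-124-3p were at 0 reads in all 3 FK506 libraries.

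Across the 3 days, FK506 and untreated libraries were compared by the quasi-likelihood test of edgeR, fitted with a term for day, over the 153 entries kept by a filter on low counts. Members miR-128-3p and miR-128-1-5p passed that filter, and the other 6 did not and were not tested. The test called 0 of 153 entries (0.0%) at an adjusted p of 0.05, with 17 under an unadjusted 0.05; DESeq2 called 5 and limma 1, none of them members. For miR-128-3p the log2 difference, FK506 over untreated, was 0.06 ± 0.74 (SE; edgeR, Benjamini-Hochberg adjusted p = 0.969). For miR-128-1-5p it was -2.17 ± 0.87 (SE; edgeR, adjusted p = 0.379, unadjusted 0.0272), below 0 at 3 of 3 days. Over the alternatives its adjusted p ran from 0.114 with DESeq2 to 0.967 in edgeR with no filter. Without the untreated day 7 library the differences were 0.92 for miR-128-3p and -1.63 for miR-128-1-5p, with adjusted p-values of 0.371 and 0.604 in edgeR. These p-values measure the spread between single libraries of different days and not between animals.

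The arms of miR-128 can be set against each other within a library, which needs no scaling. The hairpins are shown with both mature arms in capitals, since the 3p arm is the same in both and the 5p arms differ.
Mir128-1: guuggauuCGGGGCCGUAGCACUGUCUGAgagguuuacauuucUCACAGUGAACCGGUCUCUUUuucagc
Mir128-2: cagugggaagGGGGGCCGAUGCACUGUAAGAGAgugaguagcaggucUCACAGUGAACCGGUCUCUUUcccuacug
Aligned from their first base, the 5p arms share 16 of 21 bases. miR-128-3p had 24.0, 35.3 and 91.4 reads for each read of miR-128-1-5p in FK506 serum at days 3, 7 and 14, against 6.00, 14.2 and 9.91 in untreated serum. The 3 FK506 ratios were above the 3 untreated ratios, with no overlap of the points. An exact two-sided permutation test over libraries gave p = 0.1, the smallest that 3 against 3 allows, and days were not matched in it. For comparison, arms were paired where their entry names matched. Hairpins whose arms differ in the locus number of the name were left out, except the miR-128 pair, which was added. Of the 28 pairs with reads of both arms in every library, the FK506 and untreated ratios did not overlap in 5 (17.9%). In 3 of them there were more 3p reads per 5p read in FK506 serum. The miR-128 pair is itself among these 5, and its 3p reads can come from Mir128-1 or Mir128-2. The ratio was chosen after its counts were seen, and the FK506 values rest on 5 to 8 reads of miR-128-1-5p. The counting intervals were 10.8 to 66.5, 17.6 to 82.4 and 38.9 to 283 with FK506, against 3.51 to 10.9, 11.5 to 17.7 and 5.33 to 20.4 without it. Those of FK506 day 3 and untreated day 7 overlap.

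**Figure D3:**
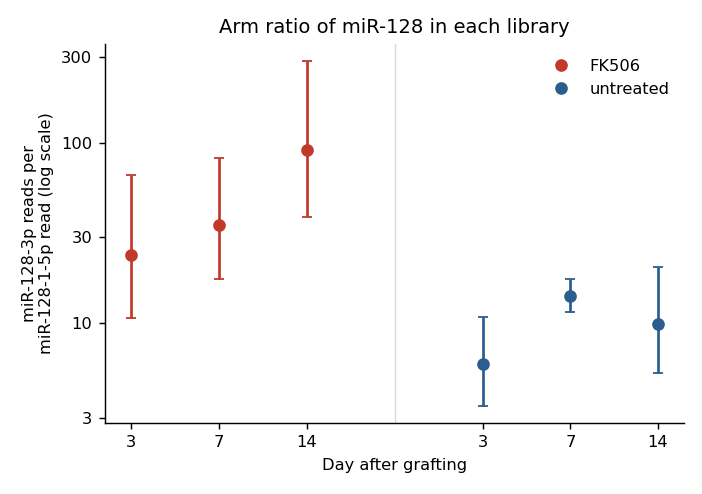
Reads of miR-128-3p for each read of miR-128-1-5p, on a log axis, by day, in FK506 libraries (red, left) and untreated libraries (blue, right); each point is 1 library and bars are exact 95% binomial intervals. The FK506 points run from 24.0 to 91.4 and the untreated points from 6.00 to 14.2.

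Most other neuron-enriched miRNAs were scarce or had no reads. Of 20 listed, 10 had no read in any library, among them miR-137-3p and miR-7a-5p, and 4 reached 50 reads in a library. At day 7 those 4 were at least 2-fold lower in FK506 serum, as were 46.5% of all entries compared. Among them, 3 reached 50 reads in untreated day 7 alone and so were compared only through the library where they were high. miR-326-3p, under 50 reads, had 8, 9 and 13 reads with FK506, against 0, 4 and 8 without it, a day 7 ratio of 3.10 (interval 0.864 to 13.8). Of the 4, miR-149-5p also reached 50 reads in another library, with 40, 41 and 54 reads with FK506, against 29, 148 and 11 without it. miR-874-3p had 2, 0 and 4 reads with FK506, against 4, 75 and 4 without it. miR-132-3p, which is induced by neuronal activity, had 4, 5 and 4 reads with FK506, against 0, 60 and 7 without it. miR-138-5p, which acts in dendritic spines, had 1, 0 and 3 reads with FK506, against 2, 54 and 0 without it. The summed list stood at 11.0 to 14.5 CPM in FK506 serum, against 6.81, 81.7 and 5.97 CPM in untreated serum at days 3, 7 and 14.

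The sum of the glia-enriched miRNAs was also highest in untreated day 7. The list summed to 4.81, 5.72 and 18.1 CPM in FK506 serum at days 3, 7 and 14, against 8.56, 574 and 3.73 CPM in untreated serum. miR-219-2-3p, which promotes oligodendrocyte maturation, had 0 reads in every FK506 library, against 0, 467 and 0 in untreated serum. miR-338-3p, with the same role, had 1, 0 and 2 reads with FK506, against 0, 347 and 0 without it. miR-204-5p had 16, 21 and 93 reads with FK506, against 39, 1939 and 12 without it. The scarcer entries were mixed. miR-338-5p had 0, 0 and 1 reads with FK506, against 0, 38 and 0 without it, and miR-219-5p had 5 reads, all in untreated day 7. miR-219-1-3p varied little, with 7, 5 and 9 reads with FK506, against 5, 10 and 8 without it. miR-211-5p had 3 reads in FK506 day 7 and 4 in untreated day 7. All 7 glial entries in the table had a read in at least 1 library, 3 of them reached 50 reads, and 2 of those 3 did so in untreated day 7 alone. The part of glial RNA in the members' day 7 difference was not tested.

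For each entry the share of its summed CPM that lay in untreated day 7 measures likeness to this pattern. Over the 192 entries with at least 50 reads the median share was 16.3%, and 12 entries exceeded 95%, of which 5 were members. miR-9-3p and miR-124-3p lay in it wholly, and miR-9-5p had 1 read outside it. The share was 98.5% for miR-129-5p, 97.4% for miR-218-5p and 97.3% for miR-129-2-3p. miR-128-1-5p had 68.8% and miR-128-3p 57.6%. Among entries with at least 50 reads, the 10 non-members with the highest share were miR-219-2-3p, miR-654-3p and miR-323-3p at 100%, then miR-338-3p, let-7e-5p, miR-129-1-3p, miR-487b-3p, miR-138-1-3p, miR-485-5p and miR-381-3p, which ended the list at 92.7%. The highest in reads was let-7e-5p, with 3993 reads in untreated day 7 and 90 in the other 5 libraries; its relatives differ by few bases, so its count is uncertain. In all, 26 entries reached 50 reads in untreated day 7 alone, against 17 in FK506 day 14 alone and 0 to 2 in any other library. Those 2 libraries had the most counts outside the top pair, 298117 and 359061, against 103058 to 160163 in the others. A fixed limit of 50 reads is reached more easily there.

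**Figure D4:**
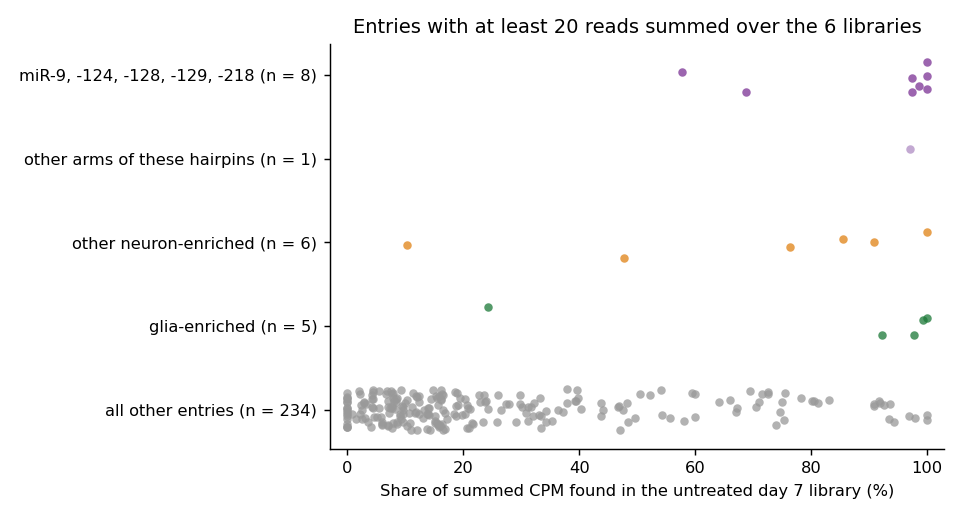
Share of each entry's summed CPM that lay in the untreated day 7 library (x axis, %), for entries with at least 20 reads over the 6 libraries, by list; each point is 1 miRNA and the vertical scatter within a row has no meaning. The median share is 98.0% for the 8 neuron-enriched miRNAs and 16.1% for the 234 other entries. It is 97.8% for the 5 glia-enriched and 80.9% for the 6 other neuron-enriched entries.

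Likeness to miR-128-3p was ranked over the 153 entries kept by the filter, which do not include the 6 near-0 members. By Pearson correlation of log2 TMM CPM over the 6 libraries, the entries most like it were miR-222-3p (0.938), miR-125b-1-3p (0.911), miR-361-3p (0.905), miR-92b-3p (0.903) and miR-99b-5p (0.888). These values share the 6 libraries and their scaling factors, and miR-128-3p itself was highest in untreated day 7.

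Summed counts were 4897727 to 5806228 for each library, and 103058 to 359061 of these lay outside the top pair. Over the 6 libraries miR-486-5p had 15061801 counts and miR-3107-5p 15014853. The same reads thus appear to be counted under both entries, so the sums can exceed the number of reads. In untreated day 7 the summed lists of other sources did not stand out upward. Each sum follows its most abundant entries, and single entries differed. Red cell miRNAs (4 of 4 with reads) summed to 470396 to 490576 CPM in FK506 serum, against 470279 to 486183 CPM in untreated serum, where day 7 was the lowest. That sum is nearly all miR-486-5p and leaves out miR-3107-5p. It therefore follows the share of the top pair and does not give the whole erythroid part. White cell and platelet miRNAs (6 of 6) summed to 1002 to 2712 CPM with FK506, against 280 to 368 CPM without it, and day 7 was the lowest untreated value. Within that list miR-126-5p had 234, 458 and 180 reads in untreated serum at days 3, 7 and 14, and miR-126-3p had 27, 42 and 28. With FK506 at the same days miR-126-5p had 316, 182 and 2099 reads, and miR-126-3p had 17, 28 and 191. Among the untreated libraries, the other entries of the list were not highest at day 7. Over all 6 libraries, no entry of the list was highest in untreated day 7. Skeletal muscle miRNAs (4 of 4) summed to 124 to 373 CPM with FK506, against 78.0 to 186 CPM without it, with miR-1a-3p and miR-206-3p at 0 in all untreated libraries. In untreated serum at days 3, 7 and 14, miR-133a-3p had 945, 370 and 418 reads and miR-133b-3p had 10, 12 and 0. Liver miRNAs (2 of 2) summed to 170 to 1441 CPM with FK506, against 318 to 1040 CPM without it. That sum is nearly all miR-192-5p. miR-122-5p had 30, 26 and 1 reads with FK506 at days 3, 7 and 14, against 5, 0 and 60 without it. The part of these lists in the members' values was not tested.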

How the data were processed

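Small RNA from 6 serum libraries was analysed, 1 for each treatment and day, so groups hold 1 library and no biological replicate. The authors deposited raw counts, 1 for each mature miRNA and library, without scaling. RNA of 15 to 30 nt, per the labels' protocols, was cut from gels, ligated to linkers, sequenced as single-end reads in a shared lane, trimmed, and matched to mouse entries of miRBase 20.0 with Bowtie and BLAST. Tool versions and the handling of reads with several matches were not given in these sources, so near-identical entries are uncertain.

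From these counts, TMM sizes were computed in edgeR 4.0.16 (R 4.3.3) over the 153 entries kept by filterByExpr with a minimum count of 10. Ratios of 2 libraries have exact 95% binomial intervals, which hold counting error alone, since no molecular identifiers were used; a 0 was set to a floor of 3 reads. Both ratio and fit were tested on simulated data. Bounds set at the floor were not part of that test, and the counts simulated for the fit held no day effect and no library that stood apart. The fit across days has 2 residual degrees of freedom. DESeq2 1.42.0 and limma 3.58.1 were alternatives, with other scalings, filters and left-out libraries. Gene positions come from RefSeq and GENCODE on GRCm38; the build the authors used is not stated.

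Members, lists and rules were chosen with earlier results of these data known. Named beside the members are their other arms, list entries with at least 50 reads in a library, the 10 entries most like the near-0 members and the 5 most like miR-128-3p; other list entries were named after their values were seen.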

Additional observations from a re-analysis of the deposited data

Results flagged for a closer look

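miR-128-3p stood out because its difference between FK506 and untreated serum ran in opposite directions at different days. Its log2 ratio, FK506 over untreated, was 1.23 at day 3 and -1.80 at day 7, both past 2-fold by TMM. Whether the days differ was not tested, since each rests on 1 pair of libraries.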

How the results depend on the processing

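Across days, edgeR called 0 of 153 entries; the count was 3 scaled to totals without the top pair, 5 with DESeq2, 1 with limma, 4 with no filter on low counts, 2 with no day term, and 0 to 3 with single libraries left out (3 without FK506 day 14, 1 without untreated day 14). No member was among these calls except with no filter, where miR-9-5p (adjusted p 1.54e-09) and miR-124-3p (0.0386) passed in edgeR, with 1 read between them outside untreated day 7. The miR-128-3p change of 0.06 turned to -0.97 with no day term and ran from -0.45 to 0.92 with single libraries left out. For the summed members, the log2 ratio at day 3 was 1.07, or 0.47 scaled to the library total and -0.44 without miR-128-3p. That last value rests on 8 reads with FK506 against 17, with a ratio interval of 0.275 to 1.80. At day 7 the log2 ratio of the sum was -4.60, or -5.11 scaled to the library total, -3.53 with totals without the top pair and -9.00 without miR-128-3p. At day 14 the log2 ratio of the sum was 0.52, or 1.85 scaled to the library total and -1.44 without miR-128-3p. The -1.44 rests on 11 reads against 11 and so on the TMM sizes. Scaled to the library total it was -0.12. Members at least 2-fold higher numbered 0 in place of 1 at day 3, 1 in place of 0 at day 14, and 1 in place of 0 for FK506 day 14 against day 3, each scaled to the library total. Members at least 2-fold lower at day 14 numbered 1 in place of 0 with a minimum of 10 reads. Without single days, an alternative chosen after seeing the data, the log2 difference of the miR-128 arm ratio was 1.66 to 2.60, against 2.17 with all; its sign could not change, since the groups do not overlap. Depth, at 103058 to 359061 reads outside the top pair, limits the scarce members, and groups of 1 library allow no replicate check.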
